A study of Rattus norvegicus with 48 samples.

Results

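The miR-15 family, with miR-16, miR-195 and miR-497, is a set of microRNAs (miRNAs) that share the same seed, the stretch of bases through which a miRNA finds its targets. Its members were taken here by name, as every mature rat miRNA called miR-15a, miR-15b, miR-16, miR-195 or miR-497, and this gave 10 mature strands of 764 listed, 5 from the 5′ arm and 5 from the 3′ arm of their precursors. They were followed in liver RNA from male Sprague-Dawley rats, 1 rat in each of 48 miRNA-seq libraries. Thioacetamide (TAA), a liver toxicant, was given once daily, the low, middle and high doses being 4.5, 15 and 45 mg/kg. Treatment lasted 3, 7, 14 or 28 days, written 3-d to 28-d, and controls of the same days received vehicle. There were 3 rats in each of the 12 treated and 4 control groups, and the labels give no age. Whole liver tissue was used, so fewer cells of a type and less of a miRNA per cell cannot be told apart. The liver miRNAs miR-122-5p, miR-192-5p and miR-194-5p, taken as hepatocyte markers, together had between 102800 and 381000 normalized RPM (reads per 1000000 reads of a library after upper quartile scaling) in the libraries. The lowest value was that of a 3-d control, and the other controls of that day had 207300 and 227000.

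A miRNA is cut from a hairpin precursor, and 1 arm, the guide strand, is usually kept in the silencing complex while the other, the passenger strand, is mostly lost. The guide pairs through its seed with messenger RNAs and lowers their translation and stability. Members of this family are known to target messenger RNAs of cell cycle and survival proteins, among them cyclins and BCL2, and are described as brakes on cell division. miR-195 is also known for its rise in rodent organs after birth, and miR-16 is abundant in many tissues, in blood cells included, and often serves as a reference in PCR assays of miRNAs.

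The RefSeq table used for sequences (build GRCr8) held 8 of the 10 members, and miR-15a was not among them. The files name each member with the prefix rno- for rat, which is left out below. The 5′ strands are shown because they carry the seed that defines the family, with the seed, bases 2 to 8, in capitals.
rno-miR-16-5p: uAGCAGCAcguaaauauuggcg
rno-miR-195-5p: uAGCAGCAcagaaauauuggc
rno-miR-15b-5p: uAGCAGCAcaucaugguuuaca
rno-miR-497-5p: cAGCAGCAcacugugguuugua
All 4 have the same seed, which 5 of the 724 mature entries of the table carry. The remaining one is miR-322-5p, and miR-503-5p differs from it at the last seed base.
miR-322-5p: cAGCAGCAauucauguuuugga
miR-503-5p: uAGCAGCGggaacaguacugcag
Outside the seed the members diverge. Read from the 5′ end, miR-16-5p and miR-195-5p are identical at 19 of 21 bases and differ by G10A and U11G (the base of miR-16-5p first), whereas miR-16-5p and miR-497-5p are identical at 11 of 22. The 3′ strands of miR-15b and miR-195 reached a testable level, and they are shown because their seeds differ from that of the 5′ strands and from each other.
miR-15b-3p: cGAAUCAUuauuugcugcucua
miR-195-3p: cCAAUAUUggcugugcugcucca

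Both clusters that hold these sequences are compact. miR-15b-5p (chr2:155555197-155555218) and miR-16-5p (chr2:155555343-155555364) start 146 bases apart on the plus strand, and their miRNA genes lie within the annotated gene Smc4, which encodes a subunit of condensin. miR-497-5p (chr10:55450172-55450193) and miR-195-5p (chr10:55450509-55450529) start 337 bases apart on the plus strand, between the genes Bcl6b and C10h17orf49. The passenger strand of miR-15b lies at chr2:155555235-155555256 and that of miR-195 at chr10:55450547-55450569.

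The libraries held 293331 to 14906217 counts each (median 10237542). Control 3-d replicate 1 stood apart. It had the lowest total, the next lowest being 4829217, its median Pearson's r with the other libraries was 0.874 against 0.977 to 0.988 for the others, and its level of miR-486, a red blood cell miRNA, was 80940 normalized RPM against at most 8856. miR-16-5p was low there, at 2903 normalized RPM against 9150 and 8810 in the other 3-d controls, while miR-15b-5p (161, against 151 and 171) was not, and miR-195-3p, with 17 reads, had its highest level of all libraries (47.9). A single read of miR-15b-3p was counted in it. Without it the 3-d log2 differences at low, middle and high dose went from 0.02, 0.10 and 0.31 to -0.34, -0.27 and -0.05 for miR-16-5p, from -0.11, 0.22 and -0.07 to -0.38, -0.06 and -0.35 for miR-497-5p, and from -0.16, -0.39 and -0.70 to 0.15, -0.06 and -0.36 for miR-195-3p. In separate fits of each treated group with the controls of its day (upper quartile scaling), no member was a DEM at 3-d, with or without this library. In a fit of all 48 libraries miR-195-5p was a higher DEM (log2 0.72) and miR-195-3p a lower one (-0.61) at high dose 3-d. Against the 12 controls pooled, miR-15b-3p was a higher DEM at middle (0.90) and high dose 3-d (0.87). Calls of miR-15b-5p at low dose 3-d under other scalings are given below.

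The members differed widely in level. miR-16-5p ranked 19 of 664 miRNAs with a read, with a median of 7449 normalized RPM (lowest 2179, highest 9963), and made up a median of 84.6% of the reads of the 5 5′ strands. miR-195-5p followed with a median of 502, miR-15a-5p with 411, miR-497-5p with 276 and miR-15b-5p with 114. The ranges of miR-195-5p (132 to 846), miR-15a-5p (166 to 605) and miR-497-5p (149 to 394) overlapped across libraries, as did those of miR-497-5p and miR-15b-5p (54.0 to 231), while no library had as little miR-16-5p as the highest value of any other member. Together the 5 made up a median of 0.887% of all counts. These are levels as counted, with no correction for how well each sequence is captured.

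The strand bias differed between precursors. The 3′ strand held 0.0582% of the reads of mir-15a, 0.0349% of those of mir-16 and 0.34% of those of mir-497, against 3.98% for mir-195 and 11.7% for mir-15b. Of the 3′ strands, miR-195-3p (median 22.4 normalized RPM) and miR-15b-3p (16.2) passed the filter of 5 RPM in at least 3 libraries. miR-16-3p (1 to 56 counts in a library), miR-497-3p (0 to 24) and miR-15a-3p (0 to 8) did not and were not tested. Thus 7 of the 10 members were among the 301 miRNAs tested.

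**Figure D1:**
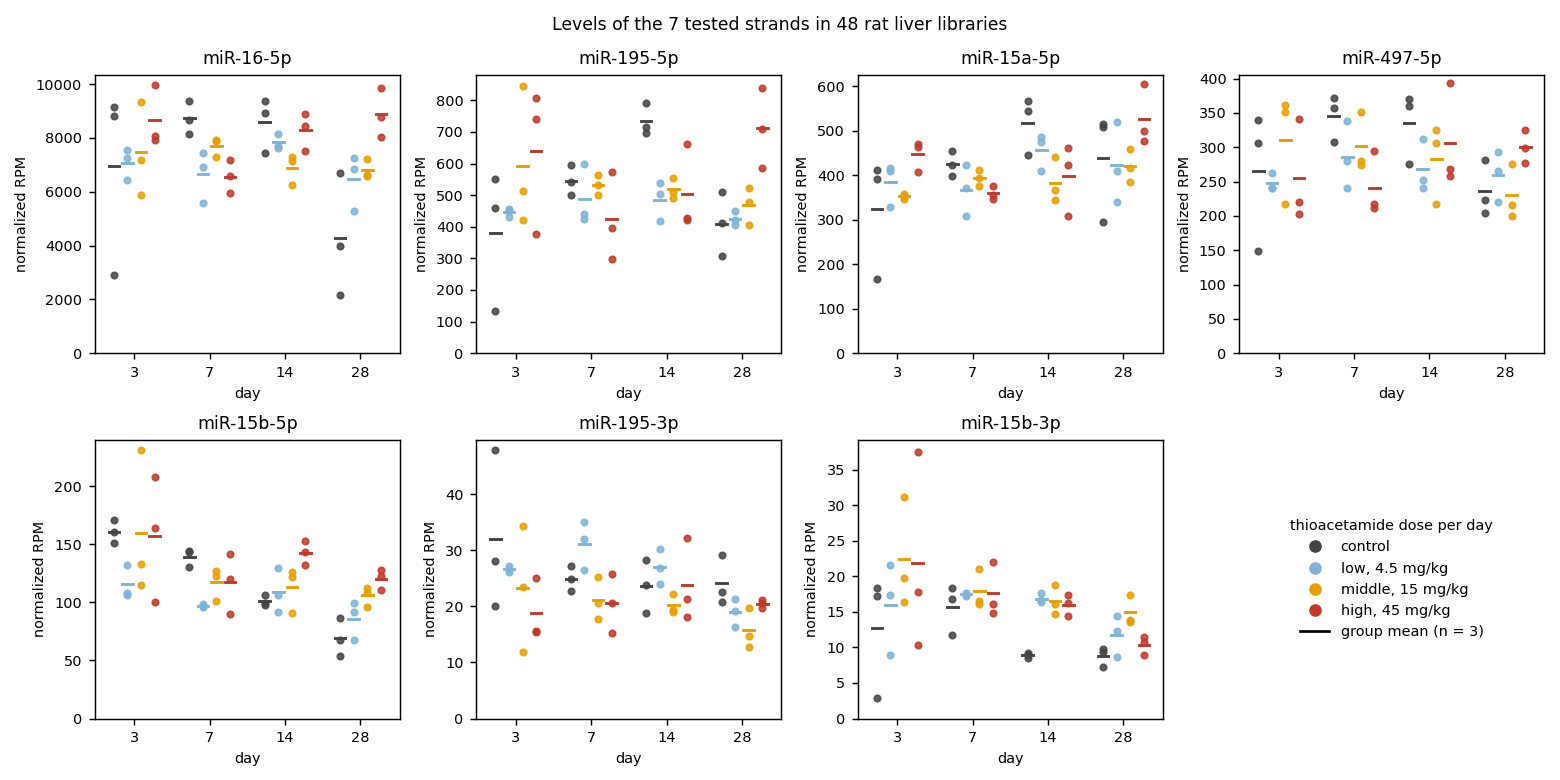
Normalized RPM (linear axis from 0) of the 7 tested strands against the day, with 1 point for each of the 48 libraries, colours for the dose and a bar for the mean of each group of 3. The 28-d controls of miR-16-5p lie between 2179 and 6692, and the 3 14-d controls of miR-15b-3p, between 8.49 and 9.18, lie below all 9 treated libraries of that day.

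The first question was which members responded to TAA in which condition. A differentially expressed miRNA (DEM) had an unadjusted p-value below 0.05 in edgeR's quasi-likelihood test and a fold change above 1.5 against the controls of its day, and the 3 doses of a day share these controls. Over the 12 conditions the 7 strands were DEMs in 10 of 84 pairs of strand and condition (11.9%), 8 higher and 2 lower. Of all tested miRNAs, 18.1% of pairs were DEMs, 12.1% higher and 5.98% lower. The 4 5′ strands with a RefSeq sequence were DEMs in 5 of 48 pairs (10.4%). Treated and control values did not overlap in 23 of the 84 pairs (27.4%), against 35.5% for all miRNAs. For all miRNAs this share was 39.5%, 7.97% and 21.9% at low, middle and high dose on 3-d, 53.2%, 46.2% and 35.2% on 7-d, 50.2%, 41.5% and 24.6% on 14-d, and 23.3%, 48.5% and 33.9% on 28-d. miR-15a-5p and miR-497-5p were DEMs in 0 of 12 conditions each, with 1 condition each at an unadjusted p-value below 0.05 in edgeR. DESeq2 called miR-15a-5p in none and miR-497-5p lower at high dose 7-d (log2 difference -0.64).

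**Figure D2:**
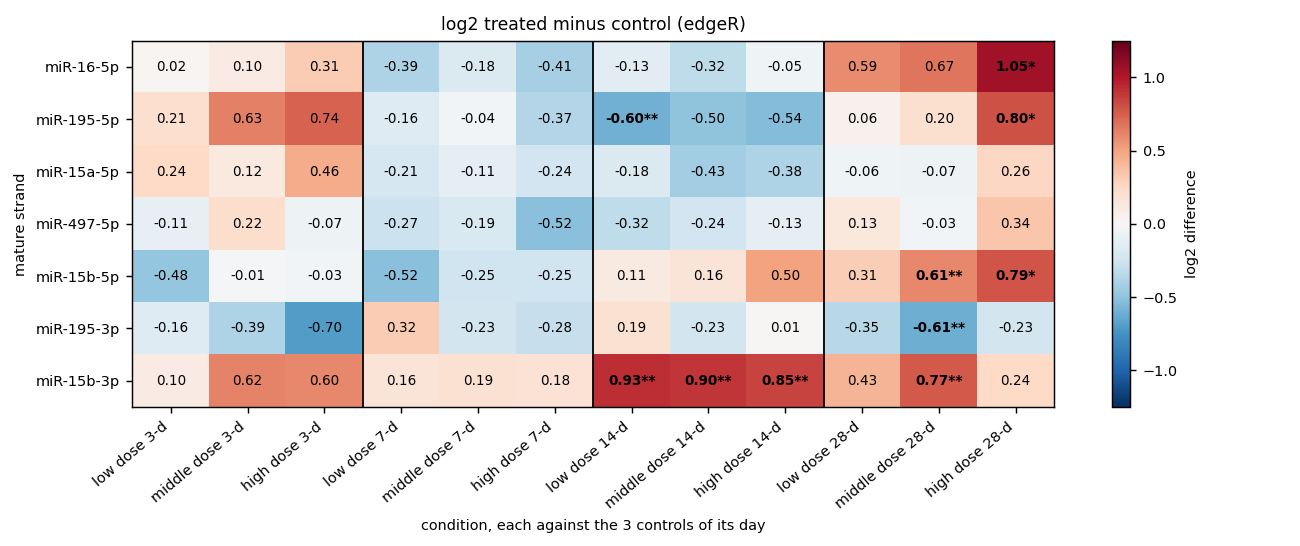
Log2 treated minus control for the 7 tested strands (rows) in the 12 conditions (columns), from edgeR. An asterisk marks a DEM and a second one an adjusted p-value below 0.05; miR-15b-3p holds 4 of the 10 DEMs, and the row of miR-16-5p runs from -0.41 at high dose 7-d to 1.05 at high dose 28-d.

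miR-16-5p, the most abundant member, lay below the controls at 7-d and above them at high dose 28-d. At 7-d the controls had 8668, 9367 and 8132 normalized RPM. The low dose rats had 7452, 5596 and 6916, the middle dose rats 7920, 7306 and 7902, and the high dose rats 6588, 7164 and 5935. All 9 treated libraries were thus below the 3 controls, which 5.98% of tested miRNAs also showed at 7-d. The log2 differences were small and none made a DEM. They were -0.39 (SE 0.12, edgeR adjusted p = 0.0291) at low dose, -0.18 (SE 0.08, edgeR adjusted p = 0.121) at middle dose and -0.41 (SE 0.13, edgeR adjusted p = 0.0937) at high dose. Without a filter miR-16-5p at high dose 7-d was a lower DEM (log2 -0.60). The red blood cell markers miR-451-5p, miR-486, miR-144-5p and miR-144-3p moved the same way at 7-d, with 2, 3 and 3 of 4 lower DEMs at low, middle and high dose. Their summed level was 3815 to 6241 normalized RPM in the controls, 3783 to 4523, 1664 to 1928 and 786 to 3416 in the treated groups, and their part in the result was not tested.

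At 28-d the controls of miR-16-5p were low and uneven, at 6692, 3983 and 2179 normalized RPM. The high dose rats had 8035, 8784 and 9864, all above the controls. The fold change was 2.08 (log2 1.05, SE 0.32, edgeR unadjusted p = 0.00851, adjusted p = 0.0801), a DEM by the unadjusted p-value but not by the adjusted one. The low dose rats (5294, 7265 and 6825) and the middle dose rats (6593, 7217 and 6634) overlapped the controls, with log2 differences of 0.59 and 0.67 that were no DEMs. Without control 28-d replicate 16, the highest of the 3, both were DEMs (1.07 and 1.15). Both were DEMs in the fit of 48 libraries too, the low dose also without a filter (0.64) and the middle dose with library size alone (0.96) or 5 RPM in every library (0.83). Background rates at high dose 28-d were 15.3% for DEMs, 13% higher and 2.33% lower. Red blood cell markers counted 0 of 4 DEMs there, with summed levels of 2954 to 5297 in the controls and 4102 to 4852 at high dose.

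The controls of these days differed from each other. In the fit of all 48 libraries, control 28-d against control 7-d was -1.03 on the log2 scale for miR-16-5p (95% interval -1.57 to -0.48, edgeR adjusted p = 0.0118) and -1.001 for miR-15b-5p (-1.45 to -0.55, edgeR adjusted p = 0.00367). Of all miRNAs tested, 5.98% differed between these control groups, and 3.65% of all tested were lower at 28-d. The call for miR-16-5p was lost without control 28-d replicate 17 or without replicate 18, and that for miR-15b-5p without replicate 18 (the log2 difference then being -0.85, edgeR adjusted p = 0.0555). Without replicate 18 the difference of miR-16-5p was -0.71 (edgeR adjusted p = 0.219). For the other members the difference was -0.83 for miR-15b-3p, -0.55 for miR-497-5p, -0.41 for miR-195-5p, -0.05 for miR-195-3p and 0.05 for miR-15a-5p, with edgeR adjusted p-values of 0.131 or above. Leukocyte markers summed to 4177 to 5104 normalized RPM in the 28-d controls against 2970 to 3477 in the 7-d controls, and endothelial markers to 28160 to 32450 against 19650 to 22550. Stellate cell or smooth muscle markers summed to 26570 to 43920 against 40680 to 45930. Red blood cell markers summed to 2954 to 5297 against 3815 to 6241, and hepatocyte markers to 252300 to 283400 against 212000 to 241500. In each list 0 markers were called in this contrast by edgeR adjusted p-value. The part of these cell types in the differences between the controls was not tested. When the 12 controls were pooled, the high dose 28-d difference of miR-16-5p was 0.32 (edgeR unadjusted p = 0.388).

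miR-15b-5p, encoded next to miR-16-5p, was lower on later days in the controls, from 161 ± 10.1 normalized RPM at 3-d to 139 ± 7.60 at 7-d, 101 ± 4.36 at 14-d and 69.5 ± 16.3 at 28-d (mean ± SD, n = 3). The 28-d controls had 86.5, 67.9 and 54.0. The high dose rats of that day had 123, 111 and 128 and the middle dose rats 109, 113 and 96.1, so that both groups lay above all 3 controls. The fold changes were 1.73 at high dose (log2 0.79, SE 0.19, edgeR adjusted p = 0.0537) and 1.52 at middle dose (log2 0.61, SE 0.20, edgeR adjusted p = 0.0352), both DEMs. At middle dose 28-d, 32.9% of all miRNAs were DEMs, 20.9% higher. This fold change was close to the threshold, and the call was lost under TMM (log2 0.53), with the size factors of DESeq2 and in its own test (0.54 each), without a filter (0.45), and without control 28-d replicate 18 (0.46) or middle dose 28-d replicate 37 (0.58) or 38 (0.56). Against the 12 controls pooled the log2 differences were -0.15 at middle and 0.04 at high dose, and neither was a DEM.

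At 3-d the low dose log2 difference of miR-15b-5p was -0.48, no DEM, and it became a lower DEM with each of the 3 other scalings (TMM, the size factors of DESeq2, library size alone) and in the DESeq2 test. At 7-d the controls had 144, 143 and 130 normalized RPM and the low dose rats 96.3, 98.8 and 96.4, a fold change of 0.698 (edgeR adjusted p = 0.00385) that stayed just inside the DEM threshold and was no DEM. The middle dose (123, 101 and 127) lay below the controls as well, and the high dose (141, 120 and 89.6) overlapped them. At 14-d the high dose rats (132, 153 and 143) lay above the controls (106, 97.6 and 99.3), with a fold change of 1.41 (edgeR adjusted p = 0.112) that did not reach the threshold. With library size alone, low dose 7-d was a lower DEM (-0.63) and high dose 14-d a higher one (0.71).

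miR-15b-3p, the passenger strand of the same hairpin, was the member with the most DEMs. At 14-d the controls had 9.18, 8.49 and 8.94 normalized RPM. The low dose rats had 16.6, 17.7 and 16.3, the middle dose rats 14.7, 16.1 and 18.8, and the high dose rats 14.4, 16.2 and 17.4. All 9 treated libraries lay above the controls, which 4.65% of tested miRNAs showed at 14-d. The fold changes of 1.90, 1.86 and 1.80 at low, middle and high dose were much alike (log2 0.93, 0.90 and 0.85, edgeR adjusted p = 0.00436, 0.00716 and 0.0489), and share the same 3 controls. Higher DEMs were 22.9%, 12% and 5.65% of all miRNAs in these conditions. The calls held when any 1 library was left out. Against the 12 controls pooled the log2 differences were 0.49, 0.46 and 0.41 and none was a DEM. The controls of 3-d and 7-d were higher than those of 14-d, at 17.3 and 18.3 (and 2.82 in replicate 1) and at 11.8 to 18.3.

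At 28-d the middle dose rats (17.4, 13.9 and 13.6) again lay above the controls (9.35, 7.24 and 9.83), with a fold change of 1.70 (edgeR adjusted p = 0.0160), and against the 12 controls pooled the log2 difference was 0.32 and no DEM. The low dose rats (14.5, 8.61 and 12.3) and the high dose rats (11.5, 10.7 and 8.96) overlapped the controls. Without low dose 28-d replicate 29 the low dose was a DEM (log2 0.61). At 7-d the 3 log2 differences were between 0.16 and 0.19 and no dose was a DEM. The log2 difference was above 0 in 12 of 12 conditions, but at low dose 3-d (0.10) it turned below 0 without control 3-d replicate 1 (-0.16) or low dose 3-d replicate 43 and with each of the 3 other scalings (TMM, the size factors of DESeq2, library size alone) and in the DESeq2 test.

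Averaged over the 12 conditions in the fit of 48 libraries, miR-15b-3p was higher in treated than in control rats by 0.47 on the log2 scale (95% interval 0.20 to 0.75, edgeR adjusted p = 0.00534). With this contrast 41.2% of all miRNAs were called, 25.2% higher. The value was 0.43 (edgeR adjusted p = 0.00809) without control 3-d replicate 1, and without the 14-d groups it was 0.34 and no longer called (edgeR adjusted p = 0.0856). By dose its average over the 4 time points was 0.39, 0.60 and 0.44 at low, middle and high dose (edgeR adjusted p = 0.0464, 0.00413 and 0.0408), where 49.8%, 36.5% and 28.2% of all miRNAs were called. The call at low dose was lost without any of 19 libraries and that at high dose without any of 11. Neither was called in the DESeq2 test, with its size factors in edgeR, or when no filter was used, and the call at low dose was lost with library size alone and that at high dose under TMM. The other 6 members were not called in the average of the 12 conditions. Their averages were 0.11 for miR-16-5p (-0.11 to 0.33), 0.08 for miR-15b-5p (-0.11 to 0.26), 0.03 for miR-195-5p (-0.22 to 0.28), -0.05 for miR-15a-5p (-0.23 to 0.12), -0.10 for miR-497-5p (-0.30 to 0.09) and -0.20 for miR-195-3p (-0.43 to 0.03). The median of all miRNAs was 0.06. The sign of the averages of miR-16-5p, miR-15b-5p, miR-195-5p and miR-15a-5p turned under at least 1 other setting.

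**Figure D3:**
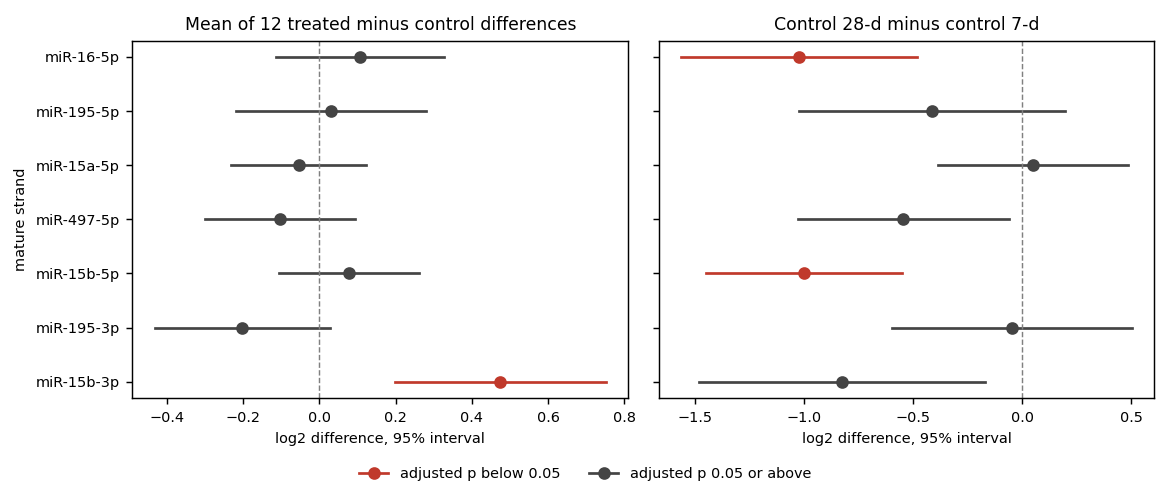
Log2 differences with 95% intervals for the 7 tested strands, from a fit of all 48 libraries: left, the mean of the 12 treated minus control differences, and right, control 28-d minus control 7-d. On the left the interval of miR-15b-3p (0.20 to 0.75) lies above 0, and on the right miR-16-5p and miR-15b-5p are near -1.0.

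The ratio of the strands of mir-15b within a library does not depend on the scaling, and it was added after the values of the strands had been seen, so no test is given. At 14-d the log2 ratio of miR-15b-3p to miR-15b-5p was between -3.52 and -3.47 in the 3 controls and between -3.23 and -2.46 in the 9 treated libraries. At 7-d it was -3.46 to -2.96 in the controls, and the low dose rats, at -2.49 to -2.44, lay above them. The mean of the treated minus that of the control libraries was 0.96, 0.54, 0.64 and -0.12 on the 4 days in order. The 3-d value was 0.26 without control 3-d replicate 1, in which the 3′ strand had a single read. At 28-d the high dose libraries (-3.83 to -3.36) lay below the controls (-3.22 to -2.45), whereas the low dose (-3.01 to -2.66) and the middle dose (-3.01 to -2.65) overlapped them.

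**Figure D4:**
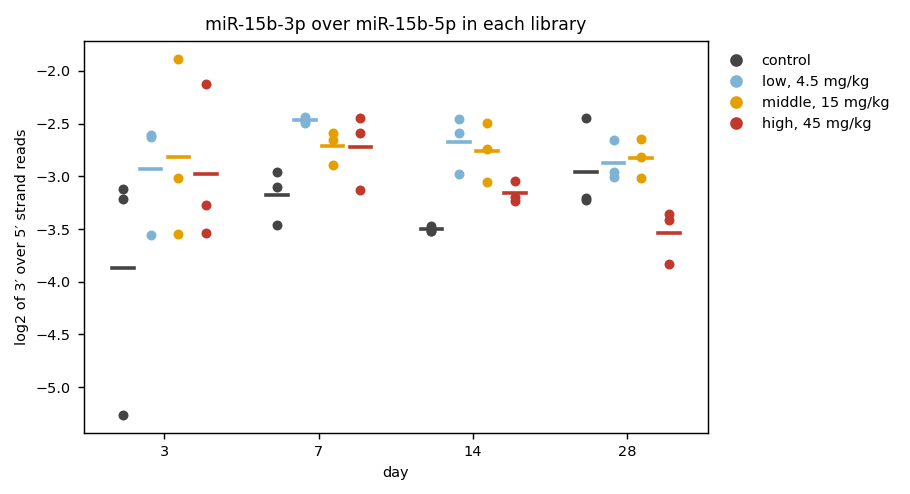
Log2 ratio of miR-15b-3p to miR-15b-5p reads (count + 0.5) against the day, 1 point for each library, with the dose in colour and bars at group means (n = 3). The 14-d controls, near -3.5, lie below all 9 treated libraries, and the lowest point, -5.26, is control 3-d replicate 1.

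miR-195-5p, the more abundant strand of the other cluster, was a lower DEM at low dose 14-d and a higher DEM at high dose 28-d. At 14-d the controls had 791, 697 and 717 normalized RPM. The low dose rats had 537, 502 and 418, the middle dose rats 490, 510 and 555, and the high dose rats 660, 423 and 428. All 9 were below the controls, which 3.65% of tested miRNAs showed at 14-d. The fold change was 0.661 at low dose (log2 -0.60, SE 0.15, edgeR adjusted p = 0.00916), the only DEM of the 3. At low dose 14-d, 32.6% of all miRNAs were DEMs, 9.63% lower. Middle dose (fold change 0.705, edgeR adjusted p = 0.0170) and high dose (0.686, edgeR adjusted p = 0.172) were close to the threshold. The controls of 14-d were themselves above those of 7-d (542, 595 and 501), and against the 12 controls pooled the low dose difference was -0.10 on the log2 scale. Without control 14-d replicate 13 or low dose 14-d replicate 42 the fold no longer passed the threshold, and in the fit of 48 libraries the same difference missed it by its p-value. Without high dose 14-d replicate 7 the high dose was a DEM too (log2 -0.79).

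At 28-d the high dose rats had 585, 709 and 839 normalized RPM of miR-195-5p against 510, 413 and 306 in the controls. The groups did not overlap, with a fold change of 1.74 (log2 0.80, SE 0.22, edgeR unadjusted p = 0.00442, adjusted p = 0.0774). Against the 12 controls pooled the log2 difference was 0.45 and no DEM. Low dose (404, 423 and 451) and middle dose (478, 524 and 407) overlapped the controls. At 3-d the controls had 133, 552 and 461, and the log2 differences of 0.21, 0.63 and 0.74 were -0.18, 0.23 and 0.34 without replicate 1, none of them a DEM.

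miR-195-3p, the passenger strand, was a lower DEM in 1 condition. At middle dose 28-d the rats had 12.7, 19.7 and 14.8 normalized RPM against 22.6, 20.8 and 29.2 in the controls (log2 -0.61, SE 0.21, edgeR adjusted p = 0.0461). At middle dose 28-d, lower DEMs were 12% of all miRNAs. The call was lost when any of 3 libraries was left out, namely control 28-d replicate 18 and middle dose 28-d replicates 37 and 39, and also with library size alone (log2 -0.33) and with 5 RPM in every library (-0.47). miR-195-5p was not lower in this condition, at a log2 difference of 0.20. Of the averages of miR-195-3p over the 4 time points, that of the middle dose was called (-0.35 on the log2 scale). This call was lost when any of 31 of the 48 libraries was left out and with library size alone.

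miR-497-5p, transcribed with miR-195-5p, had log2 differences between -0.52 and 0.34 over the 12 conditions. The lowest was at high dose 7-d, where the rats had 217, 295 and 211 normalized RPM and the controls 372, 357 and 307. The groups did not overlap, and the fold change of 0.698 (edgeR unadjusted p = 0.0270, adjusted p = 0.129) was just short of a DEM. It became one under TMM (log2 -0.60), DESeq2's size factors (-0.64) and no filter (-0.72). At that condition 21.3% of all miRNAs were DEMs, 3.32% lower.

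miR-15a-5p, the family member of the third locus, had log2 differences between -0.43 and 0.46. The highest was at high dose 3-d and was 0.16 without control 3-d replicate 1, where those at low and middle dose 3-d turned from 0.24 and 0.12 to -0.06 and -0.18. At 14-d the controls had 445, 544 and 566 normalized RPM and the middle dose rats 440, 344 and 367, all below them. At 28-d the control with the lowest miR-16-5p, replicate 18, also had the lowest miR-15a-5p, 295 against 515 and 509.

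miRNAs of a cluster are commonly cut from a shared primary transcript, and the ratios within and between clusters were compared, treated against control within days. The log2 ratio of miR-15b-5p to miR-16-5p was -5.86 ± 0.63 in 12 control and -5.98 ± 0.27 in 36 treated libraries (mean ± SD), a difference of -0.12 (2-sided permutation test, p = 0.344). For miR-195-5p to miR-497-5p it was 0.74 ± 0.40 and 0.91 ± 0.33, a difference of 0.17 (permutation test, p = 0.166), and for miR-195-5p to miR-16-5p, between the clusters, -3.77 ± 0.46 and -3.87 ± 0.36, a difference of -0.10 (permutation test, p = 0.443). Adjusted over the 3 ratios, each p-value was 0.443. By day, the first ratio differed by -0.53, -0.02, 0.41 and -0.32 from the first day to the last, the second by 0.65, 0.13, -0.32 and 0.22, and the third by 0.42, 0.12, -0.40 and -0.54. Without control 3-d replicate 1 the 3-d values were 0.02, 0.37 and 0.32.

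Differences between doses on the same day (84 tests of a member) and between the 28-d and 7-d effects of a dose (21 tests) were called in 0 members by edgeR adjusted p-value. At an unadjusted p-value below 0.05 there were 6 and 8. Such an unadjusted p-value was found for 12% to 38.5% of all miRNAs in a dose difference. In the 28-d minus 7-d effects the shares were 14%, 9.63% and 15.9% at low, middle and high dose. Over all miRNAs, middle minus low, high minus middle and high minus low dose were called in 11.6%, 0.332% and 13.6% at 3-d, 28.9%, 2.66% and 8.64% at 7-d, 23.3%, 5.32% and 19.3% at 14-d, and 4.32%, 10.6% and 2.66% at 28-d. The closest was miR-16-5p at high dose, whose effect was higher by 1.46 at 28-d than at 7-d (95% interval 0.70 to 2.23, edgeR unadjusted p = 0.000394, adjusted p = 0.0593), where 0.332% of all miRNAs were called, against 0% at low and 0% at middle dose. For miR-15b-5p the same difference was 0.83, 0.86 and 1.04 at low, middle and high dose (edgeR adjusted p = 0.241, 0.286 and 0.0800). DESeq2 called 4 of these 21, miR-16-5p and miR-15b-5p at low dose (1.14 and 0.99, DESeq2 adjusted p = 0.0420 for both) and at high dose (1.48 and 1.06, adjusted p = 0.00311 and 0.0284), and 1 dose difference, miR-15b-5p at 14-d (high minus low 0.57, adjusted p = 0.0431). The 28-d controls, which were low for both, enter all of the 28-d effects. The shares of all miRNAs given here are from edgeR, and those called by DESeq2 were not counted. Between doses the smallest edgeR adjusted p-value of a member was 0.128, for miR-195-3p, middle minus low dose at 7-d (-0.55, 95% interval -1.11 to -0.00).

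Over the 16 group means of log2 normalized RPM, which share the scaling, Pearson's r was 0.62 between miR-15b-5p and miR-16-5p and 0.66 between miR-195-5p and miR-497-5p, the pairs within a cluster. Between the clusters it was 0.69 for miR-16-5p and miR-195-5p. Without control 3-d replicate 1 these values were 0.79, 0.63 and 0.68, so that the order of the pairs rests on that library. The miRNAs most like miR-16-5p were miR-34c-5p (r = 0.76), miR-195-5p (0.69) and miR-130a-3p (0.68), and without control 3-d replicate 1 miR-15b-5p (0.79) came first. For miR-15b-5p they were miR-130b-3p (0.80), miR-351-5p (0.72) and miR-221-3p (0.72). Without control 3-d replicate 1 these were 0.82, 0.75 and 0.74, and miR-16-5p, at 0.79, came before miR-351-5p and miR-221-3p. For miR-195-5p they were miR-15a-5p (0.74), miR-24-2-5p (0.74) and miR-350 (0.69). Without control 3-d replicate 1 these were 0.62, 0.62 and 0.52, and miR-16-5p (0.68) came first. For miR-497-5p they were miR-335 (0.67), miR-195-5p (0.66) and miR-16-5p (0.62).

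Other miRNAs are tied to the family by sequence or function. miR-322-5p, the other carrier of the seed in the RefSeq table, which lacks miR-15a, was a DEM in 1 of 12 conditions. It was lower at low dose 14-d (317 normalized RPM on average against 488 in controls, edgeR adjusted p = 0.0262), the condition in which miR-195-5p was lower too. miR-503-5p was counted but did not pass the filter. Of 9 miRNAs of the miR-17 and miR-106b clusters, which are known to promote cell division, 6 were higher and 1, miR-92a-3p, was lower in the average of the 12 conditions by edgeR adjusted p-value, with a median of 0.30 on the log2 scale. Of all miRNAs tested, 25.2% were higher and 15.9% lower in this average, and whether the list differs from the family was not tested. In single conditions the list had 7 higher and 6 lower DEMs in 108 pairs. Of all pairs of miRNA and condition, 12.1% were higher and 5.98% lower DEMs. miR-25-3p (0.38) and miR-93-5p (0.33) were among the 6 that were higher in the average. miR-92a-3p had 81380 normalized RPM in control 3-d replicate 1, against 19580 and 17530 in the other 3-d controls. Its average without that library was not tested. Of 4 miRNAs linked to p53 that were tested, miR-34a-5p (3.26) and miR-192-5p (0.21) were higher in the average. miR-34c-5p (0.05) and miR-194-5p (-0.06) were not called. miR-192-5p and miR-194-5p are also among the hepatocyte markers.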

How the data were processed

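Liver miRNA-seq of 48 rats (16 groups of 3) was analysed from the raw counts deposited by the authors. Per the study's methods, adaptors were removed, reads under 18 or over 25 bases were dropped, quality was checked with FastQC, reads were mapped to rn5 (tool and build are also in the submitters' processing notes), and miRDeep2 counted them on miRBase release 21. The counts were not normalized. Where a mature miRNA had several precursors, the row with the most reads was kept; each member had 1. The filter, 5 RPM in 3 or more libraries, left 301 of 664 miRNAs with a read. Each treated group was set against the 3 controls of its day with edgeR 4.0.16 in R 4.3.3 (quasi-likelihood F-test; edgeR and upper quartile scaling were also the choice of the study), and 20 contrasts were tested in a fit of 48 libraries. Benjamini-Hochberg adjustment was over the 301 miRNAs of each comparison. With 3 rats against 3 no exact permutation of the labels can reach the threshold for 1 miRNA, and none was used. Ratios used log2 of (count + 0.5) and 100000 permutations within days. DESeq2 1.42.0 was an alternative. Scripts were tested on simulated data, in which upper quartile scaling moved with the changed miRNAs. Other scalings, filters and left-out libraries were alternatives.

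Members, lists and tests were chosen with earlier results of these data known. All strands that the naming rule finds are named, and for 4 5′ strands the 3 most correlated miRNAs. Of 48 pairs of marker and condition, red blood cells had 20 lower and 1 higher DEM and leukocytes 6 and 1; of 60 pairs, stellate cells or smooth muscle had 7 and 6; of 36, hepatocytes had 1 and 2; and of 24, endothelium had 0 and 0 by edgeR, with 6 at an unadjusted p-value below 0.05. In the library of the lowest total, 3 counts, taken as the limit of detection, are 10.2 RPM, and in the deepest one they are 0.201 RPM; these limits cover counting error only. Sequences and coordinates are from RefSeq (GRCr8).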

Additional observations from a re-analysis of the deposited data

Results flagged for a closer look

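In 3 cases the effects of a dose had opposite signs on different days, with groups that did not overlap. The cases were picked by this rule from the same values that the p-values below use. How many of all miRNAs meet the rule was not counted. In a single condition the groups did not overlap for 7.97% to 53.2% of all miRNAs. All 3 cases use the 28-d controls, which were low for miR-16-5p and miR-15b-5p. For miR-15b-5p at middle dose, the log2 difference from controls was -0.25 at 7-d and 0.61 at 28-d, a difference of 0.86 (SE 0.31, edgeR unadjusted p = 0.00909, adjusted p = 0.286). For miR-16-5p at high dose it was -0.41 at 7-d and 1.05 at 28-d, a difference of 1.46 (SE 0.38, edgeR unadjusted p = 0.000394, adjusted p = 0.0593). For miR-195-5p at high dose it was -0.54 at 14-d and 0.80 at 28-d, a difference of 1.34 (SE 0.43, edgeR unadjusted p = 0.00331, adjusted p = 0.166). None passed edgeR's adjustment over all miRNAs. DESeq2 called the miR-16-5p case (1.48, DESeq2 adjusted p = 0.00311) and not the miR-15b-5p case, and it was not run on the miR-195-5p case. Groups of 3 were too small for Dixon's test of an outlying library.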

How the results depend on the processing

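The family had 10 DEMs, and 6 when 5 RPM were required in every library, which leaves out miR-15b-3p. There, at middle dose 28-d, the call of miR-195-3p was lost (log2 -0.47) and miR-16-5p was a new one (0.83). Against the 12 controls pooled there were 3 DEMs. Only miR-195-3p at middle dose 28-d (-0.68) was among the 10. The others were new calls, miR-15b-3p at middle (0.90) and high dose 3-d (0.87). DEMs numbered 7 to 14 under the other settings and 8 to 12 when 1 library was left out. Against the pooled controls the middle dose 28-d difference of miR-15b-5p turned to -0.15 on the log2 scale. In the average of the 12 conditions, miR-195-5p was -0.012 with TMM, and miR-15b-5p and miR-195-5p were -0.010 and -0.030 with DESeq2's size factors and -0.0036 and -0.031 in the DESeq2 Wald test. Without a filter miR-15b-5p, miR-16-5p and miR-195-5p were -0.050, -0.014 and -0.085. None of these was called, and the cause was not tested. The next alternatives were chosen after seeing the data. Without the 28-d groups the same 3 were -0.085, -0.12 and -0.078, and without the 14-d groups miR-15a-5p was 0.039 and miR-15b-3p 0.34, no longer called. Without control 28-d replicates 17 and 18 together, control 28-d minus control 7-d was -0.69 for miR-15b-5p and -0.38 for miR-16-5p, neither called, with 1 sample left in that group, assumed to vary like the others. Leaving out 1 library gave -0.065 to 0.11 for the average of miR-195-5p, -1.19 to -0.85 and -1.50 to -0.71 for control 28-d minus 7-d of miR-15b-5p and miR-16-5p, and -0.20 to 0.021 for the ratio of miR-15b-5p to miR-16-5p, which was 0.065 with medians.

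Other scalings moved the median of all miRNAs by up to -0.24 (TMM), -0.22 (DESeq2's size factors) and 0.28 (library size alone) on the log2 scale in a condition, and 66.9% of all DEMs were higher with upper quartile scaling against 59.2% to 70.8%. Of 744 results for a single member and condition under another setting, 633 kept direction and call, 18 lost and 20 gained a call, 1 turned a called direction and 72 changed sign without a call. No paired analysis was possible because the labels number the rats from 1 to 48 and no 2 groups share a number. In control 3-d replicate 1, 3 counts are 10.2 RPM, close to the level of miR-15b-3p in many libraries, so a difference of this strand at 3-d was poorly measured.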
